A study of Mus musculus with 2 samples.

Results

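Some protein-coding genes are annotated with a transcript made of a single exon, so that their mRNA is complete without splicing. A transcript model was taken as a member when the deposited tables class it as known, give it 1 exon and place it in a protein-coding gene outside the mitochondrial chromosome. By this rule 845 models had at least 1 read in either library, out of 23597 known mouse models with reads and 5092 annotated single-exon models of protein-coding genes. Of the members, 342 lay in 339 genes whose annotated transcripts all have 1 exon, called single-exon genes here. The other 503 lay in 492 multi-exon genes, whose annotation holds at least 1 spliced transcript. Replicate 1 held 629 members and replicate 2 held 733, of which 517 were found in both. The 12 single-exon coding models of the mitochondrial chromosome were left out.

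The RNA came from adrenal glands of male mice 4 days after birth, of the hybrid strain B6CASTF1/J. No treatment, genotype or other condition was compared, and the 2 libraries, both with spike-in RNAs added, form 1 group. The labels number them as biological replicates 1 and 2, but give both the same donor, and the males named in the tissue and library descriptions differ for replicate 2. Whether they come from separate animals is therefore not certain, and every test between them compares libraries. Replicate 1 held 688260 mouse reads and replicate 2 held 810645. Levels are in CPM, reads per 1000000 mouse reads, and 1 read equalled 1.45 and 1.23 CPM. Each long read stands for 1 cDNA molecule, so levels were not divided by transcript length. Of the marker lists, adrenal cortex (6 of 6 genes found) summed to 45805 and 31233 CPM, and chromaffin cells (5 of 5) to 12468 and 9258. Liver (8 of 8) summed to 443 and 17063, red blood cells (5 of 5) to 3670 and 7480, muscle (2 of 2) to 1168 and 1894, and fat (3 of 3) to 1424 and 1974. Kidney markers (2 of 4 found in replicate 1 and 4 of 4 in replicate 2) were at 36.3 and 7.40 CPM. In bulk tissue, fewer cells of a type and less RNA per cell cannot be told apart.

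Genes without introns fall into a few classes. Replication-dependent histone genes make short mRNAs that end in a conserved stem-loop in place of a poly(A) tail. Many regulators with rapid turnover, among them JUN and C/EBP transcription factors, and many G protein-coupled receptors have intronless coding regions, and retrocopies arise when a spliced mRNA is reverse-transcribed back into the genome. A long read without a splice junction carries no intron to show its strand or its origin. The class known is also wide for such reads. Of 20603 and 30401 other single-exon models in replicates 1 and 2, 12 and 14 touched a member on its strand, and none by more than 1 base. Any unspliced read over a member was therefore counted for that member, whether or not it spans the whole transcript, and a model's level below is the level of unspliced reads over it.

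Windows at or near the annotated 3′ ends of leading members are shown because a poly(A) tail decides whether cDNA primed on poly(A) can hold an RNA. The labels used here name total RNA and leave the priming unstated. Each line is 30 bases of the mm10 genome from the GENCODE M21 transcripts, 5′ to 3′ on the strand of the gene, and capitals mark the poly(A) signal AATAAA. The lines were taken from leading members that hold the signal. Other leading members, among them Jund, Rpl10-ps3, Pcbp1 and Cldn5, had no AATAAA in their last 50 annotated bases. The annotated end of Pcbp1 holds the related hexamer ATTAAA. Cebpb lies at chr2:167690384-167690413 (plus), Ndn at chr7:62350233-62350262 (plus), Sephs2 at chr7:127271879-127271908 (minus) and H1f0 at chr15:79030475-79030504 (plus).
Cebpb: ttttAATAAActtttttggagaatgtttaa
Ndn: acactttagcagAATAAAcccttatcatgc
Sephs2: taactaAATAAAagggactttgttggaaaa
H1f0: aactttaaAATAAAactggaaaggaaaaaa
The signal AATAAA was searched on the sense strand in the last 50 annotated bases. It was found in 79 of 140 coding members of single-exon genes with at least 20 reads (56.4%) and in 4109 of 6349 multi-exon coding models with as many reads (64.7%). Over the whole annotation the shares were 22.6% of 2786 coding models with 1 exon and 41.5% of 55959 with more. Among all members of the retained-intron type, which annotates a transcript that keeps an intron, 96 of 374 held it (25.7%), and 10 of the 14 with at least 20 reads did (71.4%). Coding members of single-exon genes with any reads held it in 198 of 339 cases (58.4%). With ATTAAA counted as well, 96 of the 140 coding members (68.6%) and 5054 of the 6349 multi-exon coding models (79.6%) held either hexamer. The search was chosen after levels had been seen.

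Single-exon members took a small part of either library. Together they held 13182 reads in replicate 1, or 1.92% of mouse reads (95% Wilson interval 1.88 to 1.95). In replicate 2 they held 14140 reads, or 1.74% (1.72 to 1.77). The intervals do not overlap and cover counting error only. Single-exon genes gave most of these reads, 9910 and 10337, or 75.2% and 73.1% of the members' reads. Counted over all their models, spliced ones too, single-exon genes took 1.46% and 1.30% of mouse reads. Most members were rare. Over both libraries 237 members had 1 read in all, and 185 had the 20 reads that a test needed, so that 660 members were described only by their counts. Annotated lengths ran from 102 to 15841 bases, with a median of 2107. The longest members with at least 20 reads were Paqr9 at 8367 bases, Purb at 8319 and Cbx6-208 at 7850, and the shortest were Rps27rt at 374, Gm11273 at 390 and Gm7075 at 425.

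**Figure D1:**
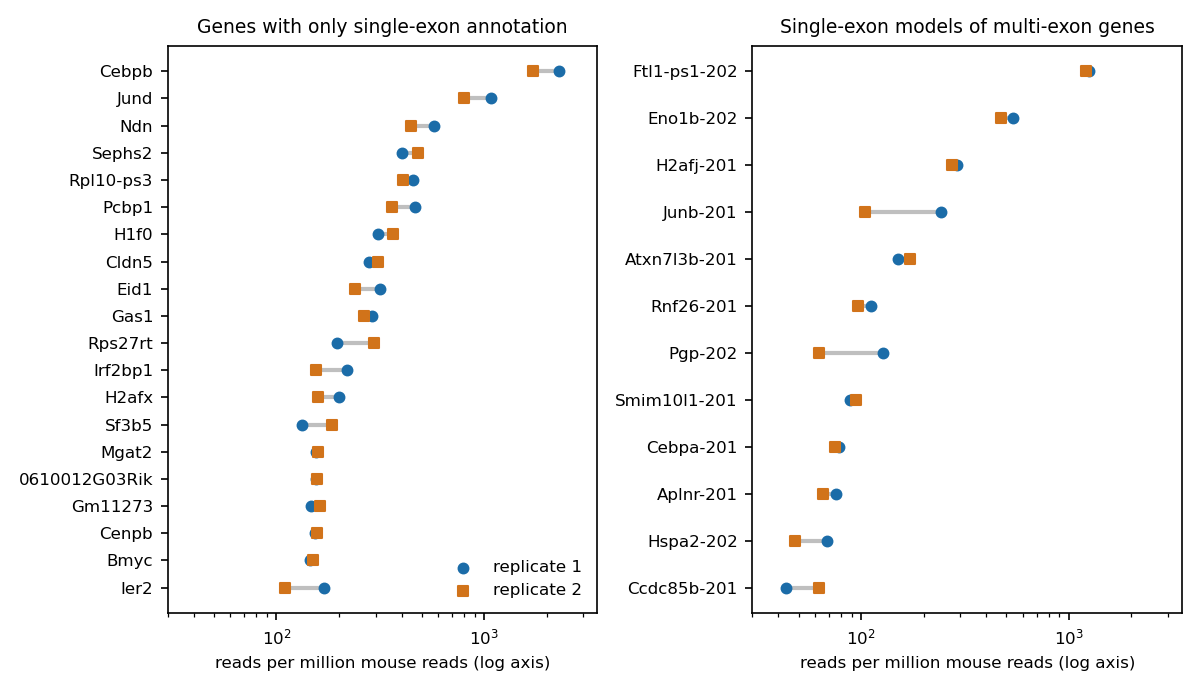
Level of the leading members in each library, in CPM on a log axis. The left panel shows the 20 most abundant members of single-exon genes and the right panel the 12 most abundant single-exon models of multi-exon genes; circles are replicate 1, squares replicate 2 and grey bars join them. Cebpb leads the left panel at 2284 and 1707, Ftl1-ps1-202 leads the right panel at 1247 and 1211, and Junb-201 and Pgp-202 show the widest gaps on the right.

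The gene Cebpb led all members. It encodes C/EBP-beta, a bZIP transcription factor of metabolic and inflammatory responses (ENSMUSG00000056501.3, chromosome 2, 167688915 to 167690418, plus strand, 1504 bases, of which 888 are coding). Cebpb had 1572 reads in replicate 1 and 1384 in replicate 2, or 2284 and 1707 CPM (1996 ± 408, SD, n = 2). It alone gave 15.9% and 13.4% of the reads of the single-exon gene members. The other C/EBP members lay in multi-exon genes and were far lower. Cebpa, a partner in hepatocyte and fat cell differentiation, had 54 and 61 reads (76.9 ± 2.27 CPM). Cebpd had 20 and 24 reads (29.3 ± 0.387 CPM), and a single-exon model of Cebpg had 2 and 1.

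Within single-exon genes, the next ranks joined transcription factors, a growth suppressor, RNA-binding proteins and histones. Among all members Ftl1-ps1-202, a model of a multi-exon gene, came second at 1229 CPM on average, and Eno1b-202, another, had 506. Jund, the AP-1 subunit with steady expression in many tissues, had 1082 and 802 CPM (745 and 650 reads). Ndn, the imprinted necdin gene of the Prader-Willi region, had 574 and 443 CPM (395 and 359 reads). Sephs2, a selenophosphate synthetase that is itself a selenoprotein, had 401 and 482 CPM. Jund and Ndn were lower in replicate 2 and Sephs2 was higher, none of them by a log2 ratio of 1. Pcbp1, a poly(C)-binding protein, had 465 and 359 CPM. Cldn5, the tight-junction claudin of endothelium, had 192 and 249 reads (293 ± 19.9 CPM). Eid1, an inhibitor of p300-dependent differentiation, had 315 and 239 CPM. Gas1, a membrane co-receptor of hedgehog ligands, had 288 and 263 CPM in its model Gas1-202. From Ndn down, the library values of many ranks overlap, among them those of Ndn, Sephs2, Rpl10-ps3 and Pcbp1, of H1f0 and Pcbp1, and of Cldn5, Eid1 and Gas1, so their order is not resolved. Irf2bp1, a transcriptional corepressor, the splicing factor subunit Sf3b5, the Golgi enzyme Mgat2, the centromere protein Cenpb, Bmyc and Ier2 followed between 140 and 186 CPM on average. The 20 leading models held 56.4% and 55.4% of the reads of single-exon gene members, and the 50 leading ones 75.1% and 74.4%.

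By function, most lists of regulators and receptors had some single-exon genes with member reads, and the sensory and barrier families had no member read. All 5 single-exon genes of the immediate early list had reads, with Jun at 61.0 and 44.4 CPM and Ier5 at 34.9 and 45.6 CPM. Of 6 single-exon frizzled receptors, which bind Wnt ligands, 5 were found, led by Fzd1 (25 and 24 reads) and Fzd8 (17 and 27 reads). Of 15 single-exon imprinted and MAGE genes, 11 were found, and after Ndn the highest were Nsmce3, a subunit of the SMC5/6 complex, at 85.7 and 83.9 CPM, and the single-exon model of the multi-exon gene Nap1l5, a nucleosome assembly protein relative, with 32 and 42 reads. Forkhead genes were found in 7 of 13 cases, all low, with Foxc1 (13 and 14 reads) and Foxc2 (7 and 11 reads) first. Clustered protocadherins, adhesion molecules of neurons, were found in 10 of 18 cases, but their 12 members held 14 and 12 reads in all. Of the 22 single-exon genes on the list of other G protein-coupled receptors, 8 were found, led by Gpr27 (20 and 19 reads) and the lysophosphatidic acid receptor Lpar6 (13 and 16 reads). The adrenergic receptor Adra2c, known as a brake on catecholamine release, had 4 and 6 reads. Of 11 single-exon SOX and POU genes 4 were found. Sox4, active in progenitor cells, led them with 97 and 55 reads, and the single-exon model of the multi-exon gene Sox17, known from endothelium, had 5 and 0. None of the 222 single-exon olfactory, vomeronasal and taste receptor genes and none of the 69 keratin-associated, defensin and interferon genes had a member read. At these depths a count of 0 allows a level of up to 4.36 CPM (replicate 1) or 3.70 CPM (replicate 2). Of 17 single-exon germ cell retrocopies, 1 was found (Tssk6, a testis kinase, 1 read in each library).

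The smaller lists held few reads. Of 11 single-exon basic helix-loop-helix and MAF genes 2 were found, and the list's 5 members had 16 and 14 reads. The small GTPase list was led by Rhob, an endosomal GTPase, with 46 and 34 reads, and both of its single-exon genes were found. Of 3 single-exon potassium channel genes 1 was found, Kcna5, with 14 and 2 reads. All 4 single-exon genes of ubiquitin and protein quality control were found, led by Fem1a, a substrate receptor of a cullin ligase, with 25 and 40 reads. Of 4 single-exon glycosyltransferase and sulfotransferase genes 3 were found, led by B3galt6, which builds the linker of glycosaminoglycans, with 33 and 42 reads. Of 3 single-exon zinc finger genes 2 were found, and Zfp830 had 22 and 16 reads, while 16 other members of that list lay in multi-exon genes. Both insulin and Wnt adaptor genes were found, Frat2 with 6 and 2 reads and Frat1 with 2 and 1. Genes with ribosomal protein symbols made 10 members that summed to 750 and 846 CPM, and the 4 most abundant of them are near copies of spliced genes.

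Most histone mRNAs of dividing cells lack a poly(A) tail, so cDNA primed on poly(A) holds few of them. Of 71 single-exon histone genes, 22 had reads, and with 3 models of multi-exon genes they made 25 members with 755 and 900 reads. The 3 leading histone members had no match to the stem-loop pattern searched here in their annotated sequence. H1f0, the linker histone of resting cells, had 307 and 365 CPM (211 and 296 reads). H2afj, an H2A variant, had 291 and 273 CPM, and H2afx, whose phosphorylation marks DNA breaks, had 201 and 158 CPM. Together with 7 other models without a match they held 567 and 675 reads. The histone stem-loop is shown because it is the known 3′ end of replication-dependent histone mRNAs. A model without a match does not set a gene apart from them, since models such as Hist1h2ai and Hist1h1b are annotated to only 3 bases after the coding part. The search also took a fixed pattern, of the form in capitals below, so a variant stem-loop would be missed. Hist2h2be and Hist1h4i had no match though annotated for 2195 and 379 bases after the coding part. In these 30-base windows, capitals mark the stem-loop, at chr3:96246025-96246054 (plus), chr13:23739505-23739534 (plus) and chr13:23531451-23531480 (plus).
Hist2h2aa1: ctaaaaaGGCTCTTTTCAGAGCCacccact
Hist1h1c: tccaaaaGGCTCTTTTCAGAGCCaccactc
Hist1h4h: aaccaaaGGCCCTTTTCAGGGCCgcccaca
The stem-loop lay in 15 histone members, which held 188 and 225 reads. Searched on the sense strand over whole transcripts, it was found in 18 of 21685 known models of protein-coding genes with reads. In 8 of the 15 the annotated model ran on for over 100 bases past the stem-loop, and 5 of those 8 had AATAAA in their last 50 bases. These 8 held 63 and 81 reads, with Hist1h1c (24 and 46) and Hist3h2a (30 and 24) first. The other 7 ended within 46 bases of the stem-loop and had no AATAAA there, and they held 125 and 144 reads. Most of the latter came from Hist2h2aa2 (59 and 59 reads) and Hist2h2aa1 (47 and 54 reads), identical in sequence over 90.1% of the length of Hist2h2aa1. Reads of such a pair cannot be told apart by sequence, so the split between them is uncertain. The stem-loop search was chosen after the levels had been seen.

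Among the 503 members in multi-exon genes, annotated coding models and retained introns took different shares of the host gene's reads. The 115 coding models held 2515 and 2820 reads, with a median share of 50% and 57.1% of the reads of the gene. In the 30 of them with at least 20 reads the median was 97.4% and 99.4%, a subset that its own read minimum favours. H2afj, Junb, Aplnr, Cebpd and Rnf26 are of this kind, with 98.1% to 100% of gene reads in the single-exon model in either library. Though annotated with a spliced transcript as well, these genes were read almost entirely as the unspliced model. The counts of Rnf26 (77 and 78 reads) are uncertain, since it has a near copy in another gene, as defined below. Aplnr is the receptor of apelin, known from endothelium, and had 75.6 and 65.4 CPM. Atxn7l3b, a relative of a SAGA complex subunit, had 151 and 173 CPM, or 99.0% and 100% of its gene. The 374 retained-intron models held 740 and 957 reads, with a median share of 2.50% and 4.27% of gene reads. In the 14 with at least 20 reads the median was 23.8% and 22.4%, a subset chosen in the same way. Pgp-202 was the most abundant, a retained-intron model of Pgp, the phosphoglycolate phosphatase gene (chromosome 17, 24470435 to 24472862, plus strand). It had 88 and 51 reads, or 28.4% and 23.7% of the reads of Pgp. Cbx6-208, in a Polycomb chromobox gene, held 33.3% and 34.2%. Since unspliced reads over a model were counted for it whatever their ends, these shares can hold fragments of unspliced RNA together with transcripts that end as annotated.

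The near-identical copies among the members are named next, since their counts can pass between genes. A tested member was taken as a near copy when a transcript of another gene matched it at 90% identity or more over 80% of its length or more (BLAST, a comparison chosen after values were seen). Of 185 tested members, 24 had such a match, and they held 20.9% and 23.5% of the tested members' reads. For 6 of the 24, Rnf26 among them, the match was a single-exon transcript of another protein-coding gene. For the other 18, the match was a multi-exon coding gene. Such a copy can carry the exons of that gene joined, as in this 60-base window of the coding region of Rps27rt (chr9:114982563-114982622, minus), in which capitals mark the bases at an exon junction of Rps27.
Rps27rt: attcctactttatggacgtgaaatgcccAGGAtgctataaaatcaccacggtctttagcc
Rps27: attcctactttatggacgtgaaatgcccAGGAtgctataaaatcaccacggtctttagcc
All 252 coding bases of Rps27rt equal those of Rps27, a ribosomal protein gene whose coding part has 3 junctions. Rps27rt also ends in a genomic run of A, with 30 A among its last 30 annotated bases. Runs of 20 or more A in the last 30 bases were found in 8 of the 18 near copies of multi-exon genes and in 3 of the other 167 tested members. Where copies differ, the differences are few. In the windows from Ftl1-ps1 (chr13:74407041-74407100, plus) and Gm11273 (chr13:21501276-21501335, minus), capitals mark the base that differs from the spliced gene.
Ftl1-ps1: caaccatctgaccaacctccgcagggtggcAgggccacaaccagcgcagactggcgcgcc
Ftl1: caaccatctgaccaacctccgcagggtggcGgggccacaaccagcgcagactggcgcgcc
Gm11273: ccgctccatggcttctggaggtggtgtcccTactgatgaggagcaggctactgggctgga
Cox5b: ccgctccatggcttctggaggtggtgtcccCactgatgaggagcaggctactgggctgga
Ftl1-ps1 and Ftl1 differ at 2 of 549 coding bases, and Gm11273 and Cox5b at 3 of 387.

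**Figure D2:**
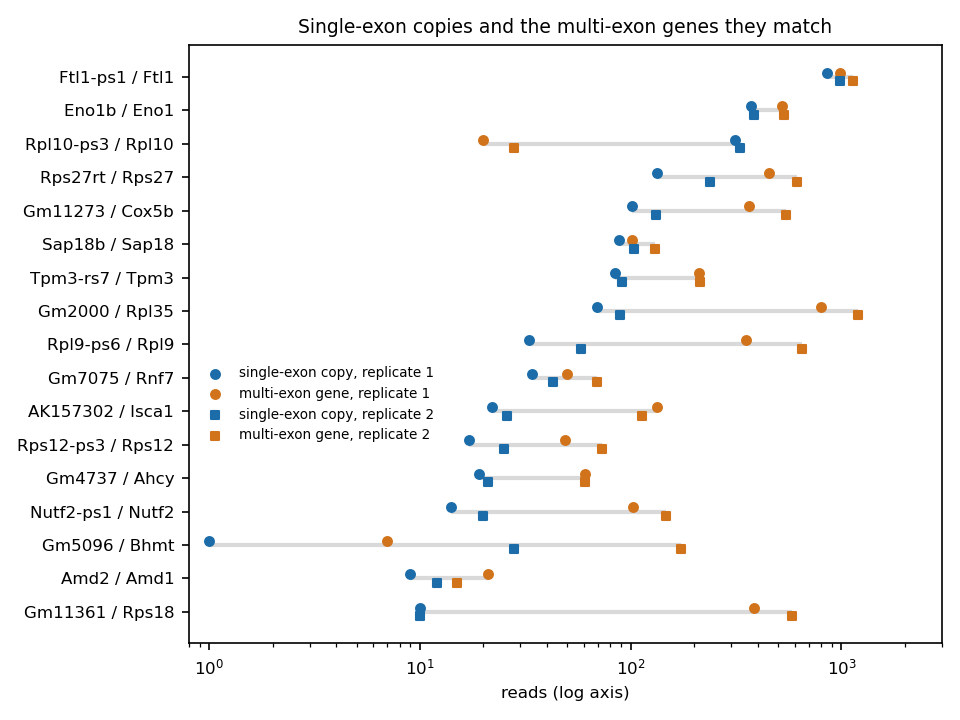
Reads of 17 of the 18 single-exon near copies (blue) and of the multi-exon genes they match (orange) on a log axis, circles for replicate 1 and squares for replicate 2; grey bars span the 4 values of a pair. Only Rpl10-ps3 lies above its gene, with 314 and 329 reads against 20 and 28 for Rpl10.

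The most abundant copy, Ftl1-ps1-202, matches the ferritin light chain gene Ftl1 (99.6% identity over 97.0% of its length) and had 858 and 982 reads, beside 981 and 1139 for Ftl1. Eno1b, a copy of the glycolytic enolase gene Eno1, had 371 and 383 reads beside 523 and 534. These copies stood at 87.5 and 86.2, and at 70.9 and 71.7, reads per 100 of the gene they match. Rps27rt had 134 and 238 reads beside 451 and 616 for Rps27, and Gm11273 had 101 and 132 beside 365 and 544 for Cox5b, a subunit of cytochrome c oxidase. The order was turned for Rpl10-ps3, a copy identical to Rpl10 over its 642 coding bases, which had 314 and 329 reads beside 20 and 28. Rpl10 lies on chromosome X and Rpl10-ps3 on chromosome 9, where its annotated end holds 29 A in 30 bases. In the other 17 pairs the copy had fewer reads than the gene in both libraries. Sap18b also came near its gene, at 88 and 104 reads beside 101 and 131 for Sap18, a histone deacetylase complex subunit. The smallest share was that of Gm11361, with 10 and 10 reads beside 386 and 582 for Rps18. How the authors' counting divided reads between identical loci is not given in the sources used here, so the counts of all 18 copies and their genes are uncertain. The same holds for the other 6 near copies. Leaving the 18 copies of multi-exon genes out, members held 1.51% of mouse reads on average in place of 1.83%, an alternative added after the data were seen.

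Detection over the whole annotation was lower for single-exon genes. Of 1331 single-exon genes, 287 (21.6%) had a read of any model in replicate 1 and 317 (23.8%) in replicate 2. Of 20684 multi-exon protein-coding genes, 13190 (63.8%) and 13811 (66.8%) did. Without the sensory receptor genes, the shares were 25.8% and 28.6% against 68.0% and 71.2%. Both libraries gave the lower share for single-exon genes, by a gap far wider than that between libraries. Among the genes found, single-exon genes had a median of 13.1 and 9.87 CPM and multi-exon genes 18.9 and 17.3 CPM. Genes are not replicates, so these are descriptions with no test.

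Reads of single-exon genes almost always matched the annotation, while reads of multi-exon genes often fell in other classes. Known models took 98.4% of 10076 reads of single-exon genes in replicate 1 (95% Wilson interval 98.1 to 98.6) and 98.1% of 10535 in replicate 2 (97.8 to 98.4). For multi-exon genes the shares were 76.7% and 73.5%. Among genes with at least 20 reads, the median was 100% in both libraries for 146 single-exon genes, and 78.2% and 73.3% for multi-exon genes. The classes that need splice junctions are nearly closed to single-exon genes: models with incomplete junctions took 0.0595% and 0.152% of their reads, against 10.3% and 11.5% in multi-exon genes. The known share also rests on the overlap rule given above, by which a fragment of an intronless mRNA is known while a fragment of a spliced mRNA is incomplete. Of 38 single-exon genes with at least 50 reads in each library, 21 had known reads only. Cebpb, Jund, Sephs2, Eid1 and H2afx were the most abundant of these.

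**Figure D3:**
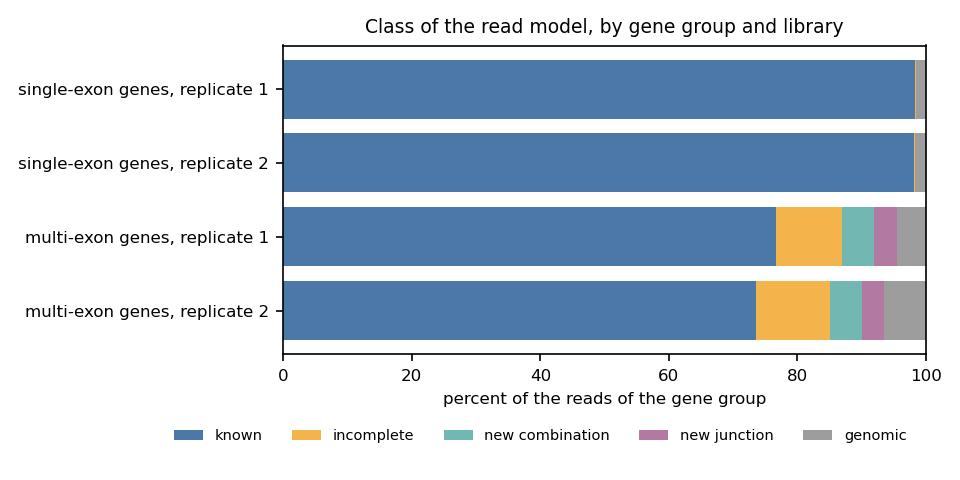
Share of reads by class of model, in percent of all reads of the gene group in a library. Known models take 98.4% and 98.1% in single-exon genes and 76.7% and 73.5% in multi-exon genes, where incomplete models form the next largest class at 10.3% and 11.5%.

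A few genes annotated without an intron were read as spliced RNA. Spliced models held 165 reads (1.64%) of single-exon genes in replicate 1 and 183 (1.74%) in replicate 2, and 5 genes gave most of them. Most of these reads were in models deposited as genomic, a class with 155 and 174 reads of single-exon genes. Incomplete models held 6 and 16 reads and models with new junctions 5 and 8. The spliced models contained 82 different introns in 57 genes, of which 11 were seen in both libraries. Of these 11, 8 lay inside the annotated exon, and 7 of the 8 began with GT and ended with AG, the bases that the spliceosome recognises. These 7 include a gap of 33 bases in Hmga1b, whose origin was not tested. Of the 30 introns inside an annotated exon that were seen in 1 library, 19 had these ends.

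Fndc10 had the most spliced reads. It encodes a membrane protein with a fibronectin type III domain (ENSMUSG00000074738.2, chromosome 4, 155694342 to 155696481, plus strand). An intron of 450 bases in its 3′ UTR (chr4:155695909-155696358) was present in 61 and 67 reads, and another of 327 bases in its coding region (chr4:155694621-155694947) in 6 and 7. The bases at their ends are shown because they set these introns apart from the next example; each line is 30 bases on the plus strand and capitals mark the first and last bases of the intron.
Fndc10 3′ UTR intron, start: gcacccagggGTgagtgtcctccacctcag
Fndc10 3′ UTR intron, end: tcctcccattctcaccccAGcgaccgtgat
Fndc10 coding intron, start: cccctacaagGTgctgtccgagggcccaga
Fndc10 coding intron, end: gctaccgcttgtgcctgcAGcagctgccgc
Spliced reads made up 63.1% of the 103 reads of Fndc10 in replicate 1 (95% Wilson interval 53.5 to 71.8) and 79.1% of 86 in replicate 2 (69.3 to 86.3). The known single-exon model thus held 38 and 18 reads, a minority of the gene in either library.

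Gas1 was the only gene with an intron inside the exon, in both libraries, that lacked GT and AG ends. The 92 missing bases (chr13:60176879-60176970, minus strand) were absent from 9 and 17 reads. They lie in the 5′ UTR of the longer model Gas1-201 and include the annotated start of Gas1-202. The deposited model begins this gap with CT and ends it with GC, as the capitals show.
Gas1 gap, start: gaacacccgcCTttaccagccgcggggccg
Gas1 gap, end: aacttttccagcggccccGCggccgccacc
The sequence at both ends of the gap shares a direct repeat of 5 bases, against a median of 1 base over the 8 introns of this kind. Spliced models were 4.78% and 7.20% of the reads of Gas1.

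In the other genes with many spliced reads, the introns reached outside the annotated exon, and their end bases were not read here. Rtl8c, a gene of the retrotransposon-derived Gag-like family on chromosome X, had an intron of 261 bases in 28 and 40 reads. Its annotated model has 401 bases and held 1 and 4 reads. Spliced models were 96.6% of its 29 reads in replicate 1 and 67.8% of 59 in replicate 2. Tmem200b, a transmembrane protein gene on chromosome 4, had an intron of 465 bases in 17 and 18 reads and spliced shares of 89.5% and 78.3%. Reads of the taste receptor gene Tas2r135 were all spliced, 10 in replicate 1 and none in replicate 2. Their introns reached up to 88868 bases and lay outside the annotated exon, so this gene had no member read. The remaining spliced reads were scattered. Pcbp1 had 1 and 3, Cldn5 1 and 2, and H1f0 1 and 1, below 1.1% of the reads of each gene. Hmga1b had a gap of 33 bases in its coding region, with GT and AG ends, in 2 and 3 of its 11 and 13 reads. The symbol of Hmga1b marks it as a relative of the chromatin protein gene Hmga1. Its single-exon model had 9 and 10 reads, too few for the near-copy search. Whether the reads with the gap came from Hmga1 was therefore not tested.

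**Figure D4:**
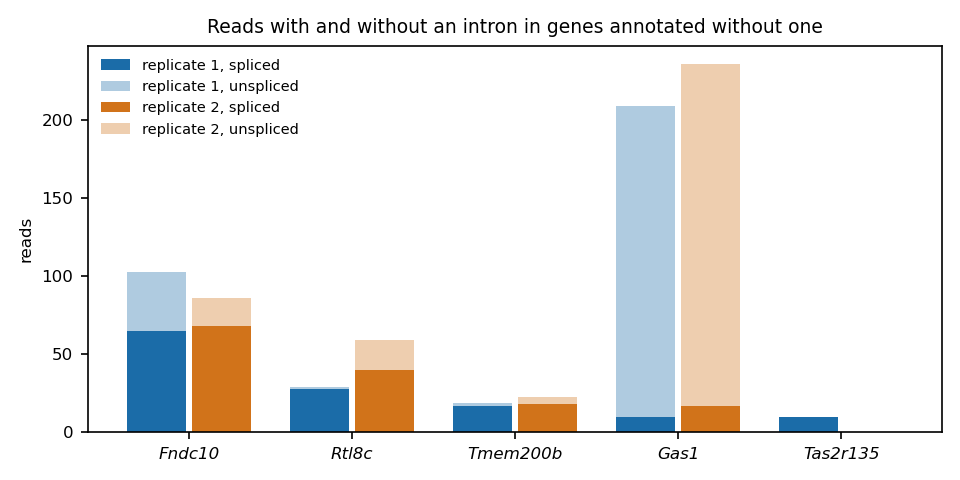
Reads of the 5 single-exon genes with most spliced reads, by library (blue replicate 1, orange replicate 2); full colour is spliced and pale colour unspliced. Spliced reads are the larger part in Fndc10, Rtl8c and Tmem200b in both libraries and under 8% in Gas1.

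Antisense-class models over single-exon genes were few. Single-exon genes had 130 and 216 such reads, or 1.29 and 2.05 for each 100 sense reads. Multi-exon genes had 2.62 and 3.93. Among genes with no annotated gene on the opposite strand the ratios were 2.34 and 3.56 for 239 single-exon genes and 2.53 and 3.60 for 8158 multi-exon genes, so the gap between the groups shrank below the gap between the libraries. Per kilobase of gene span, introns included, single-exon genes had 0.155 and 0.257 reads and multi-exon genes 0.0198 and 0.0343. Nearly all of the antisense reads over single-exon genes were themselves unspliced, 127 and 213. Antisense reads outnumbered the sense reads in 11 single-exon genes in replicate 1 and 8 in replicate 2. These were 3.17% and 2.31% of the single-exon genes found, beside 4.20% and 5.84% of the multi-exon genes found. Foxc1, a forkhead factor of mesenchyme, had 21 and 19 antisense reads beside 13 and 14 sense reads. Frat1, a GSK3-binding protein of Wnt signalling, had 9 and 22 beside 2 and 1, and neither it nor Foxc1 has an annotated gene on the opposite strand. Rap2b and Klhl9 do have one. The small GTPase gene Rap2b had 10 and 15 antisense beside 6 and 5 sense reads. Klhl9, an adaptor of a ubiquitin ligase, had 9 and 25 beside 6 and 9. Inafm2, with no gene opposite, came close, with 9 and 17 antisense beside 12 and 18 sense reads. A spliced read shows its strand by the bases of its introns, which these reads lack, so their strand rests on the orientation given in the deposited models.

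Members were close in level between the libraries. Over the 185 tested members, the levels on the log2 scale gave Pearson's r of 0.90 and Spearman's rho of 0.87, a description across models that share their libraries. Over all 6901 known models tested, r was 0.84 and rho 0.87, so the rank agreement is not particular to the members. A member was called different when Fisher's exact test of its reads against all other mouse reads gave an adjusted p under 0.05 over all 6901 known models tested and the log2 ratio of CPM, with 0.5 CPM added, was at least 1 in size. Such tests cover counting error between these libraries and may measure technical spread. Of 185 members, 11 were called (5.95%), beside 4.19% of all known models tested. In replicate 2, 3 members were higher, where 2.14% of all models were, and 8 were lower, where 2.04% were. The median log2 ratio was -0.10 over the tested members and -0.20 over all tested models. With the library totals scaled by TMM, which moves every log2 ratio of a model up by 0.18, 5 members were called, 3 higher and 2 lower, or 2.70% beside 3.23% of all models. With DESeq2's size factors, which move them up by 0.24, 4 were called, 3 higher and 1 lower, or 2.16% beside 3.13%. Most of the lower calls thus turn on the scaling, and so does whether the members' share lies above or below that of all models. Over all models of a gene, 5 of 146 single-exon genes were called, or 3.42% beside 3.23% of 8276 genes. With genomic models left out, 9 of 143 were, or 6.29% beside 3.80%. Of the 5, 2 were higher in replicate 2 (Gm5096 and Paqr9), where 2.26% of all genes were, and 3 were lower (Mocs3, Hexim1 and Zcchc3), where 0.967% were. By adjusted p alone 13 of the 146 passed, or 8.90% beside 7.93% of all genes.

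**Figure D5:**
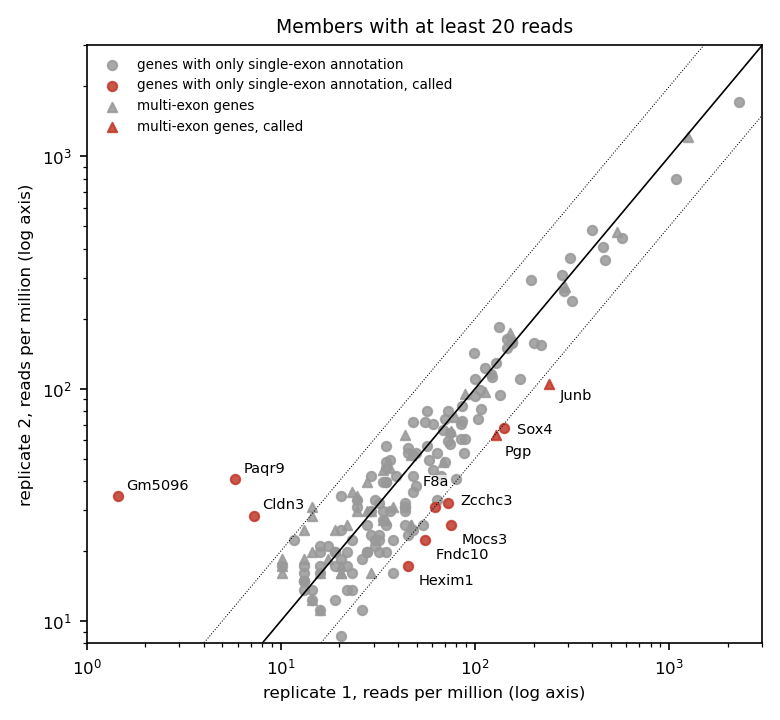
Level of the 185 tested members in replicate 1 and replicate 2, in CPM on log axes; circles are single-exon genes, triangles are members in multi-exon genes, red marks the 11 called, the line marks equal levels and dotted lines a ratio of 2. Gm5096, Paqr9 and Cldn3 lie above the upper dotted line from levels under 8 in replicate 1.

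The 3 members that were higher in replicate 2 had 5 reads or fewer in replicate 1. Gm5096, a near copy of the betaine-homocysteine methyltransferase gene Bhmt, had 1 read in replicate 1 and 28 in replicate 2, a log2 ratio of 4.17 (Fisher's exact test, adjusted p = 2.3e-05). Bhmt itself, an enzyme known from liver and kidney, had 7 and 174 reads. Paqr9, of the progestin and adiponectin receptor family, had 4 and 33 reads (log2 ratio 2.71, exact test, adjusted p = 0.000243), and the claudin gene Cldn3, known from epithelia, had 5 and 23 (1.89, exact test, adjusted p = 0.0411). The liver marker sum was higher in replicate 2 as well (443 and 17063 CPM, 8 of 8 markers found in both), and its part in these differences was not tested. All 3 were also called with TMM and with DESeq2's size factors. Counted over all models of the gene, Cldn3 had a log2 ratio of 1.65 and was not called.

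The 8 members that were lower in replicate 2 had ratios between -1.01 and -1.53. Junb, an AP-1 subunit of the immediate early response, had 166 reads in replicate 1 and 85 in replicate 2, or 241 and 105 CPM (log2 ratio -1.20, Fisher's exact test, adjusted p = 9.2e-09). Mocs3, an activating enzyme of molybdenum cofactor synthesis, had 52 and 21 reads (-1.53, exact test, adjusted p = 0.000485). Sox4 had 141 and 67.8 CPM (-1.05). Mocs3 was still called under both scalings and Junb with TMM only, at -1.02 against -0.96 with DESeq2's size factors. Sox4 was not called under either, at -0.87 and -0.81, nor over all models of its gene (97 and 57 reads). Hexim1, an inhibitor of transcription elongation by P-TEFb, had 31 and 14 reads (-1.36). Zcchc3, a zinc finger protein of nucleic acid sensing, had 50 and 26 reads (-1.17). As models, neither was called under the other scalings, where Hexim1 stood at -1.18 and -1.13 and Zcchc3 at -0.99 and -0.93. Counted over all models of the gene, both were still called with TMM. F8a, the gene of the huntingtin-associated protein HAP40, had -1.01 and an adjusted p of 0.0499 in the exact test, at the edge of the threshold. The retained-intron model Pgp-202 had -1.02, beside -0.76 for the whole gene Pgp, which was not called. The single-exon model of Fndc10 had -1.30, while the gene over all its models, most of them spliced, had -0.49 and was not called.

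The lists gave few other calls. Of 6 immediate early members, all tested, 5 were lower in replicate 2, 1 of them called (Junb), with a median log2 ratio of -0.54 beside -0.20 for all models. Summed, they had 1633 and 1132 CPM. By adjusted p alone, with no minimum size, Jund (-0.43) and Ier2 (-0.63) also passed, and 9.80% of all models did so. All 3 heat shock 70 members, which encode chaperones, were lower without a call. Hspa1b had 88.6 and 60.4 CPM, Hspa1a 47.9 and 24.7, and Hspa2 68.3 and 48.1. The adrenal cortex marker sum was lower in replicate 2 too, at 31233 against 45805 CPM, and its part in these values was not tested. Of 9 tested histone members none was called, with a median of -0.09 that turns positive under either scaling, and none of 3 tested frizzled members and none of 5 tested imprinted and MAGE members was called. Cebpb was lower by a log2 ratio of -0.42 with an adjusted p of 2.6e-13 in Fisher's exact test, at a depth of 1572 and 1384 reads. That test took the library totals as the scale and covers counting error only. TMM and DESeq2's size factors move every ratio of a model up by 0.18 and 0.24, so the size of this small ratio depends on the scaling. Of 5 tested members with ribosomal protein symbols, 4 were higher in replicate 2 and none was called, with a median of 0.57. Rps27rt passed by adjusted p alone (134 and 238 reads, 0.59, exact test, adjusted p = 0.0031). In the remaining lists, none of 3 tested C/EBP, 1 forkhead, 2 small GTPase, 2 receptor, 2 ubiquitin, 2 glycosyltransferase and 1 zinc finger members was called, and 1 of 2 SOX and POU members was (Sox4).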

How the data were processed

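Long-read cDNA libraries of 2 adrenal gland samples were analysed. For each library the authors deposited read counts per transcript model, with gene, class and exon number, and a GTF of the models. Per the file headers, reads were placed on mm10 and models named by GENCODE M21, with TALON tags. Tool versions, filters and priming were not stated there. The members and the 21 gene lists were chosen with earlier results of these data known.

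Spike-in contigs were left out, leaving 688260 and 810645 mouse reads. Every known model, and every gene, that reached 20 reads in the libraries together was tested by a two-sided Fisher's exact test (SciPy 1.17.1). The p-values had Benjamini-Hochberg adjustment over all tested. The procedure was also run on simulated counts with counting error only and changes well above the call limit. That run does not cover spread beyond counting error or changes near the limit. A call needed an adjusted p below 0.05 together with a log2 ratio, after adding 0.5 CPM, of 1 or more in size. Intervals are 95% Wilson and cover counting error only; a count of 0 allows up to 3 reads. Alternatives used TMM (edgeR 4.0.16) and DESeq2 1.42.0 size factors, other read minimums and each library left out. Near copies were found with BLAST+ 2.17.0 (1 pair is not reported here), and 1 member had no sequence.

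Named genes are the 20 most abundant single-exon genes, the 12 most abundant models of multi-exon genes, the 4 leading members of each list, called members (up to 10 each way), the 3 longest and 3 shortest tested, and 5 each by low and high known share, spliced reads and antisense reads. Near copies, end signals, stem-loops, A runs and intron ends were examined after values had been seen, and genes named only there were chosen then.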

Additional observations from a re-analysis of the deposited data

How the results depend on the processing

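Members held 1.83% of mouse reads on average (1.74% to 1.92% with either library left out), 2.53% with reads of known models as the denominator and 1.51% without the tested near copies of multi-exon genes, an alternative chosen after seeing the data. Single-exon genes held 1.38% (1.30% to 1.46%). Their detected share was 22.7% (21.6% to 23.8%), 18.3% at 2 reads or more, 13.7% at 5 or more and 27.2% without sensory receptors. For multi-exon genes it was 65.3% (63.8% to 66.8%), and 58.1%, 47.4% and 69.6% under those settings. The median known share of single-exon genes was 100%, and 98.3% over pooled reads. For multi-exon genes it was 75.7% (73.3% to 78.2%), 84.4% at 50 reads or more in each library and 80.2% within the lengths of single-exon genes. The difference of 24.3 percentage points (21.8 to 26.7) became 15.6 and 19.8. Antisense reads per 100 sense reads were 1.67 (1.29 to 2.05) for single-exon genes and 2.95 where no gene lies opposite, and 3.28 (2.62 to 3.93) for multi-exon genes. Their difference of -1.61 (-1.88 to -1.33) shrank to -0.12 there. The 11 member calls (5.95% beside 4.19% of all models) became 5 with TMM (2.70% beside 3.23%), 4 with DESeq2 size factors (2.16% beside 3.13%), 7 at 50 reads or more (6.80% beside 4.10%) and 19 with no minimum size (10.3% beside 9.80%), and 10 of 167 without the near copies. The 5 gene calls (3.42% beside 3.23% of all genes) became 8 at 10 reads or more (4.52% beside 3.10%), 3 at 50 or more (3.49% beside 3.07%), 13 with no minimum size (8.90% beside 7.93%) and 9 of 143 with genomic models left out (6.29% beside 3.80%). Where no reason is plain from the setting itself, the cause was not tested. Log2 ratios were recomputed for the 19 members that passed by adjusted p. Under TMM, DESeq2 size factors or all models of the gene none changed sign. Among the values of the 11 called members, 18 no longer met the call rule of adjusted p and size together. Ratios nearer 0 than the scaling shift, such as those of H2afj and Cebpa, turn positive under both scalings. No paired analysis was possible because the libraries form 1 group. Members with fewer than 20 reads were not testable. A count of 0 allows up to 3 reads, so 0 reads in a library cannot be told from a level of about 3 reads.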
